A study of Mus musculus with 10 samples.

Results

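The Myc network comprises the genes Myc, Mycn and Mycl, their obligate partner Max, and the Max partners Mxd1, Mxd3, Mxd4 and Mxi1, 8 genes in all. Chromatin accessibility around them was read from 10 lists of peaks from ATAC-seq, which uses the Tn5 enzyme to tag accessible DNA for sequencing. The members were all peaks with a summit, the position of highest signal, inside 1 of these genes or within 100 kb of it. After overlapping peaks of the 10 libraries had been merged into consensus regions, 122 of the 137454 regions lay in the 8 windows. Of these, 21 had their summit within 3 kb of an annotated start site of the member itself, 15 lay within 3 kb of a start site of another coding gene, and 86 were distal to both. The rule names the 8 genes and uses no measured value.

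The cells were neural stem cells cultured from the subependymal zone of 10-week-old mice, either wild type (WT) or mutant for Cdkn1b, the gene of the cyclin-dependent kinase inhibitor p27 (p27KO), both on a C57BL/6J background. Proliferating cells (PRO) were neurospheres in medium holding EGF (20 ng/ml) and FGF (10 ng/ml). Early differentiating cells (DIFF) spent 2 days on Matrigel with FGF, followed by 24 h in 2% serum without mitogens. WT cells gave 3 libraries in each condition and p27KO cells gave 2, each from 50000 cells. Substrate and serum differed between PRO and DIFF as well as the mitogens, and these changes came at different steps. DIFF minus PRO therefore covers the whole change of culture. In such bulk cultures, fewer cells with an open region and less accessibility per cell cannot be told apart.

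Myc proteins are short-lived transcription factors of the basic helix-loop-helix leucine zipper class. Bound to Max, they recognise the E-box CACGTG and activate genes for growth, ribosome production and the cell cycle. The Mxd proteins and Mxi1 compete for Max on the same E-boxes and recruit Sin3 corepressor complexes, so a shift from Myc to Mxd proteins is a textbook feature of cells that leave the cell cycle. Myc and Mycn are also known for sustaining the proliferation of neural progenitors.

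The lists held 57534 to 91801 peaks, and read depth is unknown. All 10 markers of neural stem and progenitor cells had a promoter peak in all 10 libraries. Markers of other brain cell types had one in all 10 libraries for 2 of 4 neuronal, 2 of 4 oligodendrocyte, 3 of 5 microglial, 0 of 4 endothelial, 1 of 4 mural or fibroblast and 1 of 3 ependymal genes. Of the microglial genes, Aif1, P2ry12 and Csf1r had a peak in all 10 libraries, and Spi1 and Cx3cr1 had none in any. The oligodendrocyte gene Mag and the endothelial genes Pecam1 and Tek also had none. A peak overlapped the body of the targeted gene Cdkn1b in 6 of 6 WT libraries and in 0 of 4 p27KO libraries, which follows the titles and the genotype label, whereas a further label of the p27KO libraries reads WT. A peak within 3 kb of its start site was present in all 6 WT libraries, in both p27KO PRO libraries and in neither p27KO DIFF library. Promoter peaks of the Y-linked genes Ddx3y, Eif2s3y and Uty were present in 6 of 6 WT and in 0 of 4 p27KO libraries, so genotype and sex chromosomes cannot be told apart in any comparison between genotypes.

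Of the 15 regions with a call described below, 4 are shown first, each as 300 bases of the plus strand of GRCm38.p6 centred on the summit. The first 3 are the regions, outside the Myc window, at which DIFF and PRO differed in both genotypes. The fourth is the only region with a call that holds the E-box of the network. It was chosen for that word, and its WT call held in only 1 of 10 fits that left out 1 library. Capitals mark matches, on either strand, to any of 8 short words searched, among them CACGTG, the AP-1 word TGANTCA and the Sox word ACAANG.
Mycn 43.0 kb downstream of the gene start, intergenic, chr12:12898734-12899033: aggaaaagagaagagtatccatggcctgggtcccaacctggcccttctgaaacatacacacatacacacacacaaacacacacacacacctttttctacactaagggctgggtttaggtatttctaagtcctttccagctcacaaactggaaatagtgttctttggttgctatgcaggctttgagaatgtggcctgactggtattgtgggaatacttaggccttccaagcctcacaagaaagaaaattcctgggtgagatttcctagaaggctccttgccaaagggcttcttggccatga
Mycl 3.1 kb downstream, in an intron of Mycl, chr4:122998577-122998876: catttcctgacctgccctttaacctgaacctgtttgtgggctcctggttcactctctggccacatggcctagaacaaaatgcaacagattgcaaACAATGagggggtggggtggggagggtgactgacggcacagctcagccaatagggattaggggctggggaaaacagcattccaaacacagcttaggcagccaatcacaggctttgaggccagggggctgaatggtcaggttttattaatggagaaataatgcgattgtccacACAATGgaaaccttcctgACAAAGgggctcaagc
Max 66.2 kb downstream, in an intron of Fntb, chr12:76895830-76896129: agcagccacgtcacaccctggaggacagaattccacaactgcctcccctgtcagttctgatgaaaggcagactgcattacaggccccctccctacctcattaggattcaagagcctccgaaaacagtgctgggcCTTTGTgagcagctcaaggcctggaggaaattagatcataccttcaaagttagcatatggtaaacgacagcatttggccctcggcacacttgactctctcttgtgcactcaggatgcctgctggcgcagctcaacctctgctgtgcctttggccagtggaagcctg
Mxd4 55.1 kb upstream, in an intron of Zfyve28, chr5:34242651-34242950: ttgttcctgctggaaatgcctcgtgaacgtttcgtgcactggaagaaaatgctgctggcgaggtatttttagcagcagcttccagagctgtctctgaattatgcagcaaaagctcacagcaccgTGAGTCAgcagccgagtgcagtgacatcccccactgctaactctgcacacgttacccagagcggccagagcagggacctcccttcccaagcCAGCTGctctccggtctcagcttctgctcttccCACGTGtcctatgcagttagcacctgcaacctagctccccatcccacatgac
The Mycn stretch held none of the 8 words, had 46% GC and contained 0 CpG dinucleotides. The Mycl stretch held 3 Sox words and the Max stretch held 1. The Mxd4 stretch held 1 CACGTG, 1 CAGCTG and 1 AP-1 word. A match is only a match of letters and does not show that a factor was bound.

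Accessibility is given as a percentile, the rank of a region's highest fold enrichment (signal at the summit over the local background of that library) among all peaks of the same list. Every one of the 8 promoters had a peak in 10 of 10 libraries, and their levels fell into 2 clearly separate tiers. The upper tier held Mxd1 and Mxd4, which encode antagonists of Myc, and Max, the shared partner. Over the 10 libraries the Mxd1 promoter ranged from 95.2 to 98.9 with a median of 97.2, the Max promoter from 95.04 to 98.66 with a median of 97.1, and the Mxd4 promoter from 93.2 to 97.8 with a median of 95.4. In fold enrichment the Mxd1 promoter lay between 12.9 and 19.0, the Max promoter between 13.6 and 18.1 and the Mxd4 promoter between 12.7 and 16.8.

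The lower tier held the 3 Myc genes together with Mxd3 and Mxi1. The Myc promoter stood at percentiles 56.8, 57.2 and 64.1 in WT PRO, 47.8, 46.3 and 69.7 in WT DIFF, 61.6 and 63.0 in p27KO PRO, and 62.1 and 53.4 in p27KO DIFF libraries. The Mycn promoter stood at 54.4, 51.7 and 59.5 in WT PRO, 51.5, 52.8 and 62.8 in WT DIFF, 67.6 and 59.5 in p27KO PRO, and 57.5 and 56.2 in p27KO DIFF. For both genes the DIFF values overlapped the PRO values in WT, and WT DIFF replicate 3, the longest of the WT lists, gave the highest WT value. The Mycl promoter ranged from 54.1 to 68.6 over the 10 libraries, with a median of 60.8. The Mxd3 promoter, of an antagonist that is known for expression in cycling progenitors, ranged from 35.7 to 73.1 with a median of 63.3, and its lowest value came from WT DIFF replicate 1. The Mxi1 promoter stood at 46.0, 49.2 and 44.1 in WT PRO, 48.5, 35.2 and 48.5 in WT DIFF, 59.4 and 65.3 in p27KO PRO, and 45.6 and 41.1 in p27KO DIFF, so both p27KO PRO libraries lay above the other 8. This region, at the gene start, was taken because its summit lay 56 bp from a start site. A region 57 bp from another Mxi1 start site, 19.0 kb downstream, had a mean percentile of 75.6. The level given for Mxi1 therefore depends on the start site taken.

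In the order Mxd1, Max, Mxd4, Mxd3, Mycl, Myc, Mycn and Mxi1, Mxd4 exceeded Mxd3 by 33.0 ± 10.0 percentile points (mean and SD over 10 libraries) and was higher in 10 of 10. Mycn exceeded Mxi1 by 9.06 ± 7.36 points and was higher in 9 of 10. The place of Mxi1 is that of the region at its gene start. All other neighbours differed by 0.139 to 3.73 points, less than the SD of their difference. The order is a ranking of peaks within lists and says nothing of transcript levels.

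**Figure D1:**
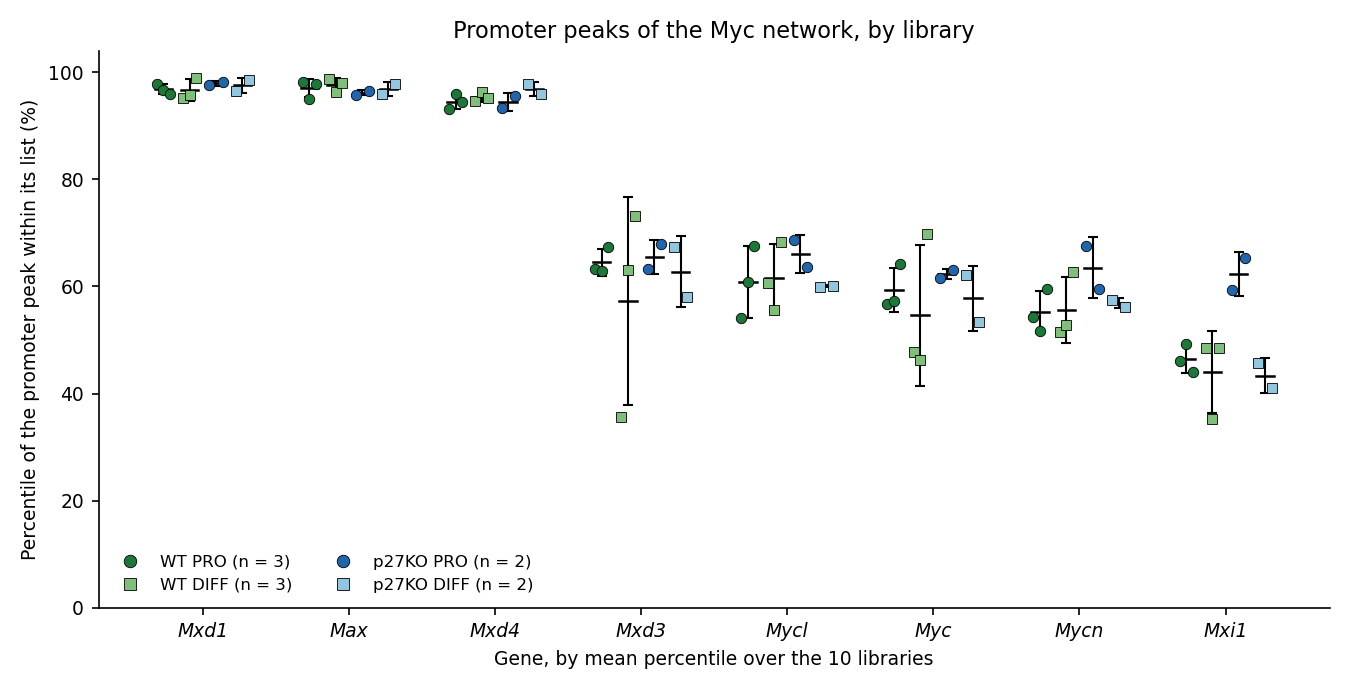
Percentile of the promoter peak within its list (vertical axis, %) for the 8 genes (horizontal axis, ordered by the mean over 10 libraries). Points are libraries, circles for PRO and squares for DIFF, and bars show the mean and SD of each group. Mxd1, Max and Mxd4 sit above 93 in every library, and the other 5 genes lie between 35.2 and 73.1, with WT PRO and WT DIFF overlapping at each. Mxi1 is shown by the region at its gene start.

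The promoter test asked whether the promoters of the network changed rank when mitogens were withdrawn. The ranks were turned into normal scores within each list and compared with limma, with 1 region per gene for 14934 protein-coding genes. None of the 8 promoters was called in WT, where 3.58% of all genes were, or in p27KO, where 1.37% were (limma, Benjamini-Hochberg adjusted p of at least 0.455 and 0.330), and none had an unadjusted p below 0.05. In WT the DIFF minus PRO change was above 0 at 8 of 8 promoters, between 0.00 and 0.18 in normal score with standard errors of 0.14 to 0.18, beside a median of 0.12 over all promoters. In p27KO it was above 0 at 7 of 8, from −0.22 at Mxi1 to 0.39 at Mxd4, with standard errors of 0.17 to 0.22 and a median of 0.14 over all promoters. Changes of the size of these errors would not have been detectable.

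The sign of these promoter changes depended on the scale. The score ranks a region among all features tested, with absent ones at the bottom, so a promoter that keeps its peak scores higher in a shorter list, while the percentile ranks it among the peaks present. The mean percentile was lower at DIFF at 4 of the 8 promoters in WT (Mxd1, Mxd3, Myc and Mxi1) and at 6 of 8 in p27KO, the exceptions being Max and Mxd4. In p27KO both DIFF percentiles lay below both PRO percentiles at Mycl, Mycn and Mxi1, although the score change was above 0 at Mycl and Mycn. At Mxd4 both p27KO DIFF percentiles lay above both PRO percentiles. With peaks ranked by p-value in place of fold enrichment, the WT score change was below 0 at 5 of the 8 promoters. No direction can therefore be given for the promoters.

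Changes were found away from the promoters. Of the 122 regions, 84 were found in 5 or more libraries and entered a test over 70627 regions. The other 38 had too few peaks, 20 of them in 1 library only. In WT, 12 of the 84 were called, 5 lower and 7 higher at DIFF. That is 14.3%, against 19.2% of all regions tested. The distal regions contributed 11 calls of 52, or 21.2%, against 23.3% of all distal regions, and the 32 regions at start sites 1 call, against 7.02% of all promoter regions. In p27KO, 7 of the 84 were called, 3 lower and 4 higher, or 8.33% against 12.3% of all regions. There the distal regions contributed 6 calls of 52, against 15.2% of all distal regions, and the start sites 1 call, against 3.72% of all promoter regions. The network was thus called no more often than the rest of the accessible genome, and its median change was 0.10 in WT and 0.13 in p27KO, beside 0.03 and 0.04 over all regions. A region that passed the filter of 5 libraries only through the group where it was high had to differ. Among the called regions, that 69.8 kb from Mxd1 had no peak in the lower condition at all. The filter also favoured the regions 3.1 kb and 51.0 kb from Mycl, 66.2 kb and 39.0 kb from Max and 140.8 kb from Mxi1. Each of them had a peak in only a minority of the 5 libraries of its lower condition. The WT count dropped to 6 without WT PRO replicate 2, and the p27KO count to 4 without either p27KO PRO library and to 3 without either p27KO DIFF library. Leaving out a library of 1 genotype left the estimates of the other genotype unchanged and altered only the shared spread and the adjustment. Of the 10 fits that leave out 1 library, those without a library of the called genotype are thus the harder trial of a call.

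**Figure D2:**
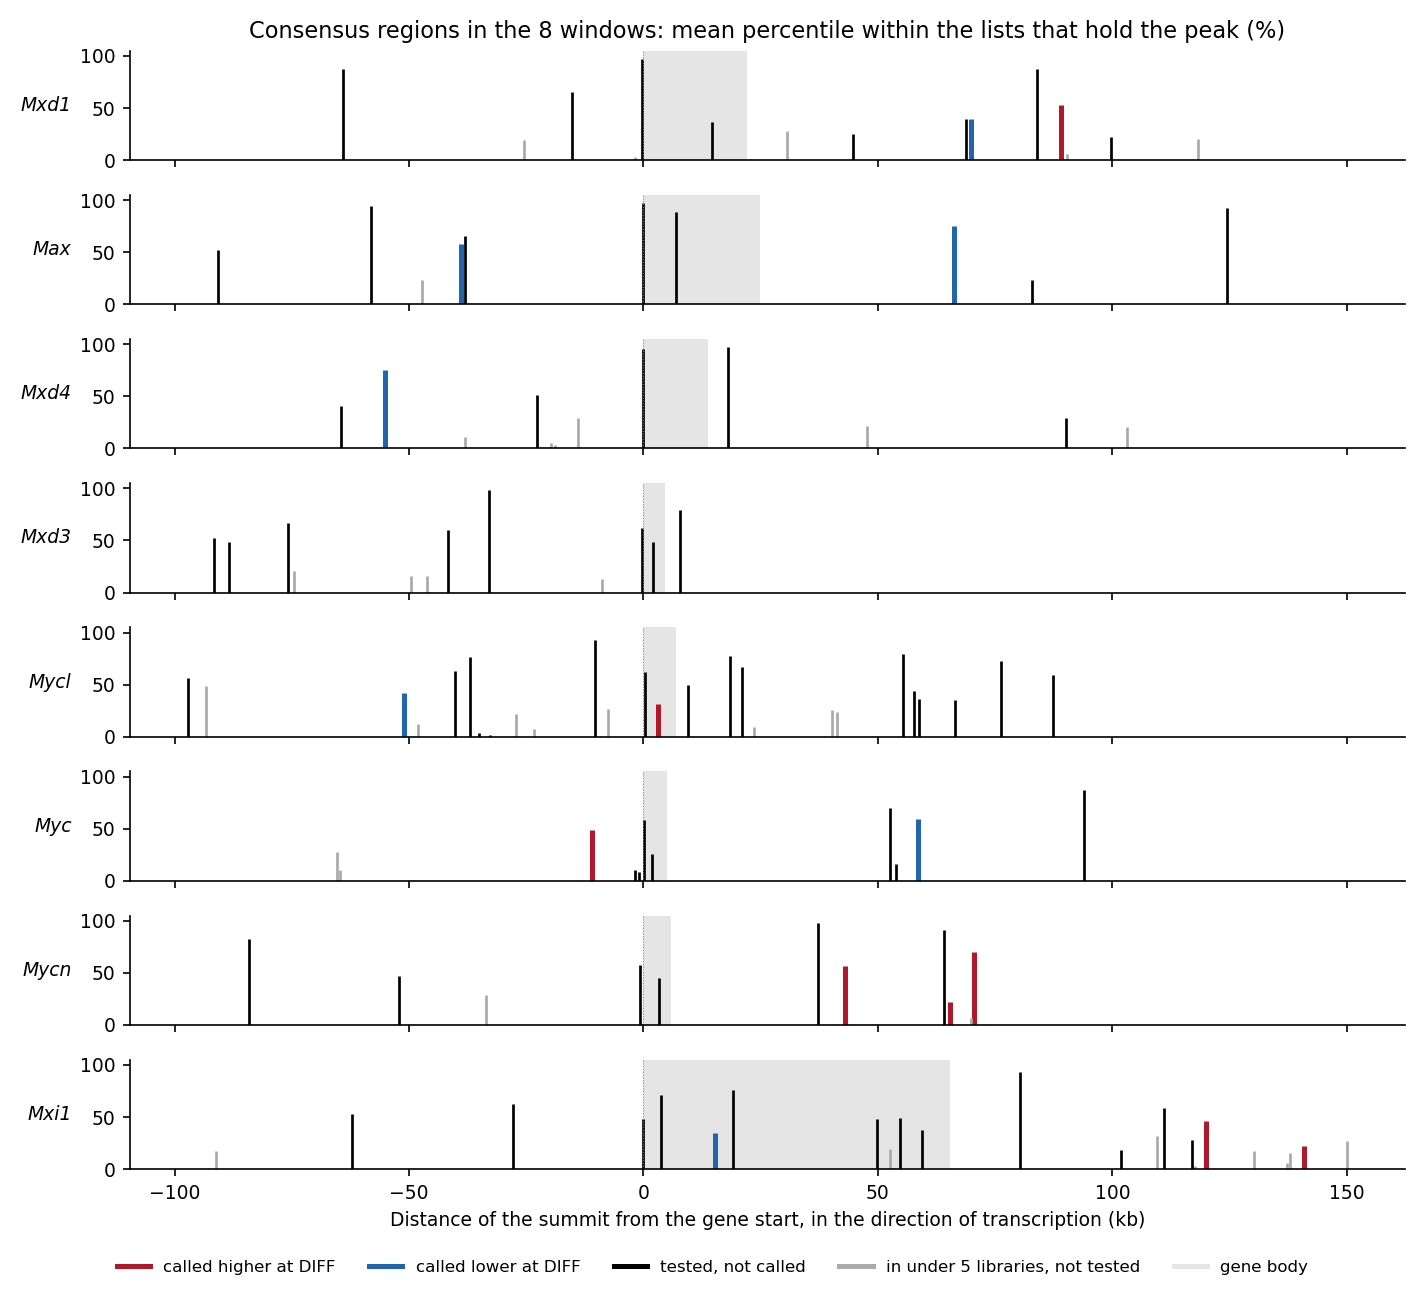
Consensus regions of the 8 windows by distance of the summit from the gene start in kb, in the direction of transcription (horizontal axis), with the height giving the mean percentile (%) over the lists that hold a peak. Grey boxes are gene bodies, red and blue bars are regions called higher or lower at DIFF in either genotype, black bars were tested and not called, and light grey bars were found in under 5 libraries. The calls lie away from the gene starts, except for the red bar inside Mycl.

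Myc (ENSMUSG00000022346) lies on chromosome 15 at 61985391 to 61990374 (GRCm38), and no other coding gene overlaps its window. Its promoter region spanned 61984684 to 61985899. Of 9 tested regions, 1 was called in WT and 2 in p27KO. The intergenic region 11.1 kb upstream (61974066 to 61974728) stood at percentiles 50.3, 33.4 and 30.7 in WT PRO, 63.7, 48.5 and 67.9 in WT DIFF, 37.0 and 36.1 in p27KO PRO, and 55.9 and 68.9 in p27KO DIFF libraries. The DIFF libraries were higher, with 1 overlap in WT (PRO replicate 1 above DIFF replicate 2) and none in p27KO. The change was 0.74 ± 0.19 in WT (SE; limma, adjusted p = 0.0191) and 0.98 ± 0.23 in p27KO (adjusted p = 0.0187). Without WT PRO replicate 2 or 3 or WT DIFF replicate 1 the WT call was lost, and without any 1 of the 4 p27KO libraries the p27KO call was lost.

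On the other side of the gene, a region 58.6 kb downstream lay in an intron of Pvt1, a noncoding RNA gene next to Myc (62043685 to 62044081). It stood at 77.2, 68.6 and 68.5 in WT PRO and at 56.0, 10.6 and 41.4 in WT DIFF, and it had percentiles of 81.5 and 72.2 in p27KO PRO and no peak in either p27KO DIFF library. PRO lay above DIFF in both genotypes without overlap. It fell in p27KO, by 1.93 with an SE of 0.28 (adjusted p = 0.00170), while in WT the change of −0.71 ± 0.23 missed the threshold (adjusted p = 0.0543) and passed it with the replicate number as a block (0.0486) or with the 57000 strongest peaks of each list (0.0357). The difference between the genotypes was −1.22 ± 0.37 and was not called after adjustment (unadjusted p = 0.00669, adjusted p = 0.9998). The strongest distal region of the window, 94.0 kb downstream and also in Pvt1, ranged from 79.3 to 93.9 and was not called in either genotype.

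Mycn (ENSMUSG00000037169), the paralogue best known from neural progenitors, lies on the minus strand of chromosome 12 at 12936093 to 12941914, with no other coding gene in its window. Its 3 calls were all higher at DIFF and all downstream of the gene. The largest was the intergenic region 43.0 kb downstream (12898445 to 12899158), whose sequence is given above. Its fold enrichment was 4.16 and 3.63 in WT PRO replicates 1 and 2, with no peak in replicate 3, against 7.68, 6.07 and 9.89 in WT DIFF. In p27KO it was 4.07 in PRO replicate 1, with no peak in PRO replicate 2, and 8.92 and 11.7 in DIFF. The percentiles rose from at most 32.9 in any PRO library to at least 60.7 in every DIFF library. The change was 1.72 ± 0.27 in WT (adjusted p = 0.00126) and 2.11 ± 0.33 in p27KO (adjusted p = 0.00227), and both calls held in each of the 10 fits that left out 1 library.

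The region 70.4 kb downstream (12871176 to 12872061, in an intron of the noncoding gene Gm48187) stood at 61.6, 47.0 and 54.8 in WT PRO and at 76.3, 74.1 and 79.6 in WT DIFF, without overlap, and rose by 0.76 ± 0.17 (adjusted p = 0.0110). In p27KO it stood at 74.0 and 64.7 in PRO and 80.6 and 84.7 in DIFF, a change of 0.63 ± 0.21 that was not called (adjusted p = 0.0819). The weak intergenic region 65.4 kb downstream was called in p27KO. There it stood at 2.8 in PRO replicate 1, had no peak in PRO replicate 2 and reached 44.9 and 32.9 in DIFF, a change of 1.38 ± 0.36 (adjusted p = 0.0302), while the WT change of 0.88 ± 0.30 missed the threshold (adjusted p = 0.0613). The p27KO call was lost without any 1 of the 4 p27KO libraries, with the 57000 strongest peaks (0.0787) and with the filter of 2 libraries (0.0549). The WT change passed with the 57000 strongest peaks (0.0381), with peaks ranked by p-value (0.0495) and with the replicate block (0.0361), so which genotype was called rests on the setting. Nearby regions at 64.2 kb and 37.2 kb downstream had mean percentiles of 90.9 and 98.1 and were not called in either genotype. That at 64.2 kb was lower at DIFF without overlap in both genotypes. It stood at 91.9, 96.2 and 93.9 in WT PRO and 86.6, 88.5 and 90.9 in WT DIFF, a change of −0.29 ± 0.17 (adjusted p = 0.288). In p27KO it stood at 97.1 and 95.5 in PRO and 84.45 and 84.15 in DIFF, a change of −0.69 ± 0.21 (adjusted p = 0.0573). The region at 37.2 kb, in an exon of the noncoding gene 4930519A11Rik, was the strongest distal region of all 8 windows and ranged from 96.1 to 99.5 over the 10 libraries.

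Mycl (ENSMUSG00000028654) lies on chromosome 4 at 122995652 to 123002485. Its window is the most crowded, with 26 regions, of which 18 were tested, and also holds the coding genes Mfsd2a and Trit1. The region 3.1 kb downstream of the gene start, in an intron and 153 bp from a further annotated start site of Mycl (122998643 to 122999035), was the only start-site region with a call and is named here because of its values. It stood at 13.5 in WT PRO replicate 1, had no peak in WT PRO replicates 2 and 3, and stood at 43.8, 35.2 and 40.1 in WT DIFF. In p27KO it had no peak in PRO replicate 1, stood at 7.7 in PRO replicate 2 and reached 32.6 and 47.8 in DIFF. All 5 DIFF libraries were above all 5 PRO libraries. The change was 1.26 ± 0.25 in WT (adjusted p = 0.00564) and 1.37 ± 0.31 in p27KO (adjusted p = 0.0156), beside changes of 0.17 and 0.06 at the main Mycl promoter that were not called. The p27KO call was lost without PRO replicate 1, DIFF replicate 1 or DIFF replicate 2, and when peaks were ranked by p-value or limited to the 57000 strongest per list.

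The region 51.0 kb upstream of Mycl (122944490 to 122944811, intergenic, nearer to Mfsd2a) stood at 44.1, 50.3 and 53.9 in WT PRO and had no peak in any WT DIFF library. In p27KO it kept a peak in all 4 libraries, at 49.6 and 39.8 in PRO and 29.96 and 26.3 in DIFF, also lower at DIFF without overlap. It fell in WT by 1.19 with an SE of 0.21 (adjusted p = 0.00294), also in each of the 10 fits that left out 1 library, while the p27KO score change was −0.04 ± 0.26 (adjusted p = 0.942), near 0 although the percentiles were lower. The interaction was 1.14 ± 0.34 with an unadjusted p of 0.00611, the lowest of the 84 regions, and did not pass adjustment over all regions (adjusted p = 0.9998). The strongest distal region of the window, 10.4 kb upstream, ranged from 84.2 to 98.2 and was not called in either genotype.

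Max (ENSMUSG00000059436), the partner that every Myc and Mxd protein needs to bind DNA, lies on the minus strand of chromosome 12 at 76937269 to 76962201. Its window held the largest loss. The region 66.2 kb downstream of the gene start, in an intron of Fntb, which encodes a farnesyltransferase subunit, spanned 76895385 to 76896231. It stood at percentiles 92.6, 96.2 and 90.1 in WT PRO, where it ranked above the Max promoter itself in replicate 2, and at 86.1 and 92.2 in p27KO PRO. In WT DIFF it had no peak in replicates 1 and 2 and stood at 38.1 in replicate 3, and in p27KO DIFF it stood at 30.0 in replicate 1 and had no peak in replicate 2. WT DIFF replicate 3 was the only WT DIFF library with a peak here and had the longest WT list, with 88738 peaks against 61783 and 57534 in WT DIFF replicates 1 and 2. It also had promoter peaks of 4 of 4 mural or fibroblast and 3 of 3 ependymal markers. Its other marker lists stood at 1 of 4 endothelial, 2 of 4 oligodendrocyte, 3 of 4 neuronal and 3 of 5 microglial genes. The part of list length or of other cells in the result was not tested. In fold enrichment the PRO libraries lay between 11.9 and 15.1, and the 2 DIFF libraries with a peak at 4.23 and 4.08. The region fell by 2.39 with an SE of 0.29 in WT (adjusted p = 0.000291) and by 2.02 with an SE of 0.35 in p27KO (adjusted p = 0.00394), and both calls held in each of the 10 fits that left out 1 library. The Fntb promoter in the same window, 124.5 kb from the Max start with a mean percentile of 92.8, changed by 0.05 ± 0.21 in WT and was not called (adjusted p = 0.907).

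A second region in the Max window, 39.0 kb upstream, fell in WT by 1.25 with an SE of 0.37 (adjusted p = 0.0373). It stood at 76.7, 70.7 and 56.3 in WT PRO, had no peak in WT DIFF replicates 1 and 2 and stood at 47.3 in replicate 3. In p27KO the values of 40.7 and 68.3 in PRO overlapped the 43.4 of DIFF replicate 1, DIFF replicate 2 had no peak, and the change of −0.61 ± 0.46 was not called. Its WT call was lost without WT PRO replicate 1 or 2 or WT DIFF replicate 1 or 2, and under 3 of 7 other settings, among them the replicate number as a block. The strongest distal region, 58.1 kb upstream, ranged from 88.8 to 99.4 and was not called.

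**Figure D3:**
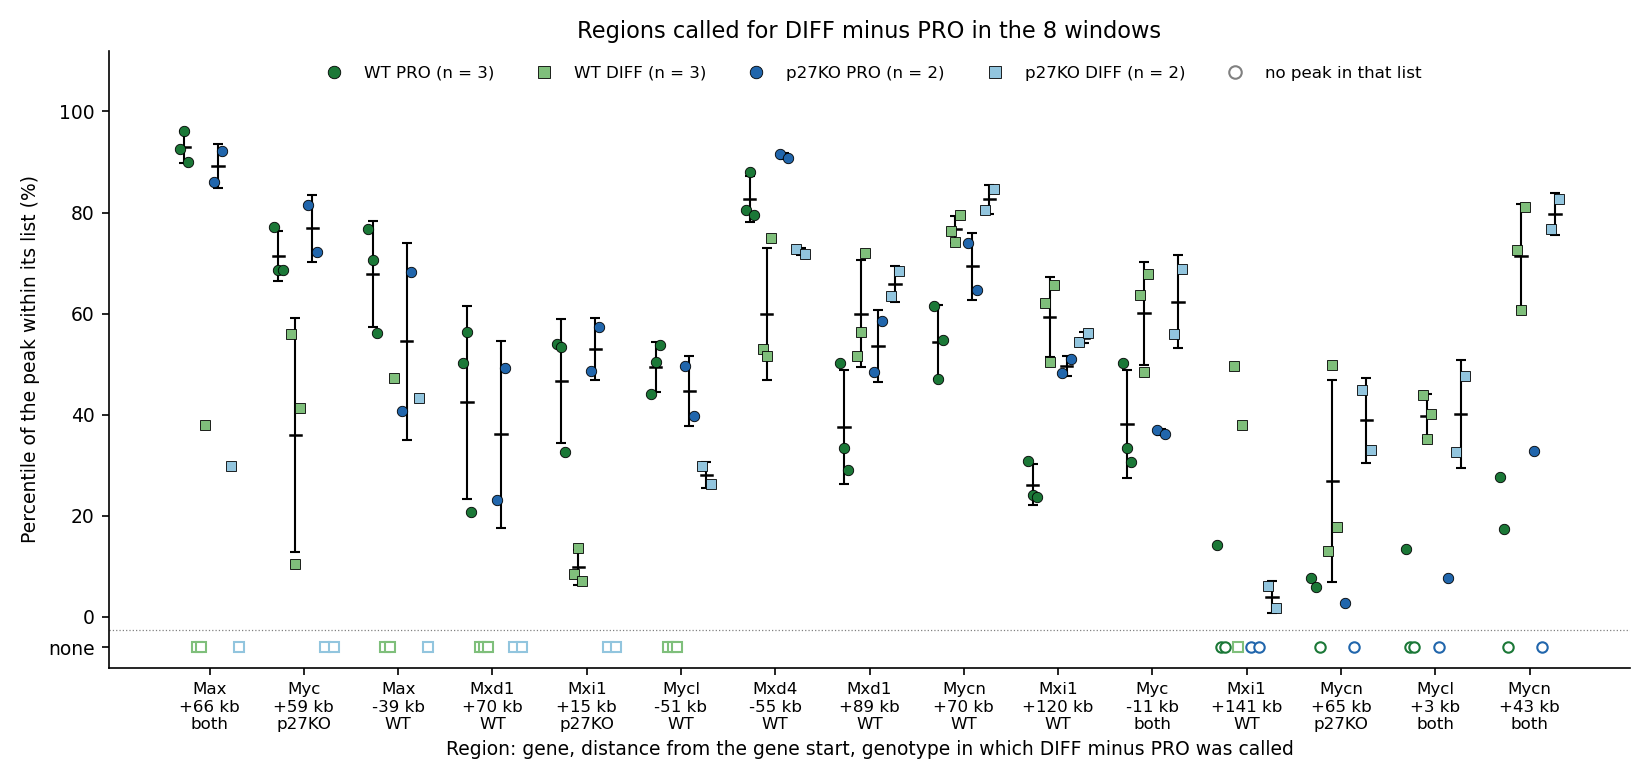
Percentile within the list (vertical axis, %) of the 15 regions called for DIFF minus PRO in either genotype (horizontal axis: gene, distance from the gene start in kb and the genotype of the call), ordered by mean change. Filled circles are PRO and filled squares DIFF libraries, open symbols mark libraries without a peak, and bars give the mean and SD of groups in which every library had a peak. The region 66 kb from Max falls from above 86 to at most 38.1, and the region 43 kb from Mycn rises from at most 32.9 to at least 60.7.

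Among the antagonists, Mxd1 (ENSMUSG00000001156; minus strand of chromosome 6, 86647042 to 86669161), which is induced in many cell types as they differentiate, had 2 calls of 10 tested regions, both in WT. The region 89.1 kb downstream stood at 50.3, 33.4 and 29.0 in WT PRO and at 51.6, 56.3 and 71.9 in WT DIFF, a rise of 0.76 ± 0.19 (adjusted p = 0.0193). Its p27KO values of 48.5 and 58.6 in PRO and 63.4 and 68.4 in DIFF gave 0.60 ± 0.24 and no call (adjusted p = 0.139). The WT call was lost without WT PRO replicate 2 or 3 or WT DIFF replicate 2. The intergenic region 69.8 kb downstream had a peak in all 5 PRO libraries, at 50.3, 56.4 and 20.7 in WT and 23.1 and 49.2 in p27KO, and in no DIFF library, so it passed the filter of 5 libraries only through PRO. It fell by 1.03 with an SE of 0.30 in WT (adjusted p = 0.0328), a call lost without WT PRO replicate 1 or 2 or WT DIFF replicate 1 or 3, and changed by −0.69 ± 0.36 in p27KO (adjusted p = 0.265).

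Mxd3 (ENSMUSG00000021485, chromosome 13, minus strand, 55325168 to 55329823) sits among 8 other coding genes, and 0 of its 8 tested regions were called in either genotype (limma; 2 had an unadjusted p below 0.05 in WT and 1 in p27KO). Mxd4 (ENSMUSG00000037235, chromosome 5, minus strand, 34173883 to 34187720) had 1 call of 6. The region 55.1 kb upstream, in an intron of Zfyve28 and with the E-box shown above, stood at 80.5, 88.0 and 79.6 in WT PRO and at 53.0, 51.7 and 74.9 in WT DIFF, without overlap. It fell by 0.55 with an SE of 0.18 (adjusted p = 0.0486), a call that held in only 1 of the 10 fits that left out 1 library and under 2 of 7 other settings. In p27KO it stood at 91.7 and 90.8 in PRO and 72.8 and 71.9 in DIFF, also without overlap, and changed by −0.64 ± 0.22 (adjusted p = 0.0799). This was also the strongest distal region of the Mxd4 window.

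Mxi1 (ENSMUSG00000025025, chromosome 19, plus strand, 53310518 to 53375810) is the longest of the 8 genes and has start sites along its body. Of its 15 tested regions 2 were called in WT and 1 in p27KO. The intergenic region 120.0 kb downstream of the gene start (53430353 to 53430784, nearer to Smndc1) stood at 30.8, 24.0 and 23.7 in WT PRO and at 62.0, 50.4 and 65.6 in WT DIFF, without overlap, and rose by 1.02 ± 0.17 (adjusted p = 0.00171), also in each of the 10 fits that left out 1 library. In p27KO the corresponding values were 48.2 and 51.0 in PRO and 54.4 and 56.1 in DIFF, a change of 0.43 ± 0.20 (adjusted p = 0.211). The region 140.8 kb downstream, in an exon of the noncoding gene Mirt1, stood at 14.3 in WT PRO replicate 1 and at 49.6 and 38.1 in WT DIFF replicates 1 and 3 and had no peak in the other WT libraries, so the groups overlapped. In p27KO it had no peak in PRO and stood at 6.2 and 1.8 in DIFF. The WT rise of 0.93 ± 0.30 (adjusted p = 0.0481) held in 2 of the 10 fits that left out 1 library.

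Inside the gene, the region 15.2 kb downstream of the start stood at 48.6 and 57.4 in p27KO PRO and had no peak in p27KO DIFF. It fell by 1.16 with an SE of 0.31 (adjusted p = 0.0332), a call lost without any 1 of the 4 p27KO libraries. In WT it stood at 54.0, 53.4 and 32.6 in PRO and at 8.6, 13.7 and 7.2 in DIFF, without overlap, a change of −0.55 ± 0.25 that was not called (adjusted p = 0.158). The alternative start site 19.0 kb downstream ranked above the main Mxi1 promoter in all 10 libraries. It stood at 63.6, 71.6 and 68.6 in WT PRO and at 74.2, 74.3 and 85.3 in WT DIFF, and its change of 0.45 ± 0.17 was not called (adjusted p = 0.0959).

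The study asked whether changes at mitogen withdrawal depend on p27, and the interaction, the DIFF minus PRO change in p27KO minus that in WT, addresses this directly. It was called at 0 of the 84 regions and at 0 of the 8 promoters, beside 0% of all 70627 regions and 0% of all 14934 promoters (limma). At an unadjusted p below 0.05 there were 4 of the 84 regions and 2760 of all regions. The 4 were the regions 58.6 kb from Myc, 51.0 kb and 10.4 kb upstream of Mycl, and 120.0 kb from Mxi1. With 2 p27KO libraries per condition, an interaction at a single region had to be large to be called.

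Side by side, 4 regions were called in both genotypes, at Myc (11.1 kb upstream), Mycn (43.0 kb), Mycl (3.1 kb) and Max (66.2 kb), 8 in WT only and 3 in p27KO only. The estimates of all 12 regions called in WT had the same sign in p27KO, beside 97.2% of all regions called in WT, and those of all 7 called in p27KO had the same sign in WT, beside 98.4%. Of the 12, 8 were not called in p27KO, and the p27KO estimates at the regions 51.0 kb upstream of Mycl and 39.0 kb upstream of Max changed sign when 1 library was left out. Some of the 8 called in WT alone were called in p27KO too under another setting. Those at Mycn (70.4 kb, adjusted p = 0.0222) and Mxd1 (89.1 kb, 0.0299) were called with peaks ranked by p-value. That at Mxi1 (140.8 kb, 0.0416) was called with a replicate block and the p27KO numbers crossed. Each of the 3 called in p27KO alone was called in WT too under another setting, those at Myc (58.6 kb) and Mycn (65.4 kb) with the replicate block and that at Mxi1 (15.2 kb) with peaks ranked by p-value. These 2 contrasts share no libraries but share 1 estimate of the spread, and a call in 1 genotype alone does not show that the genotypes differed.

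**Figure D4:**
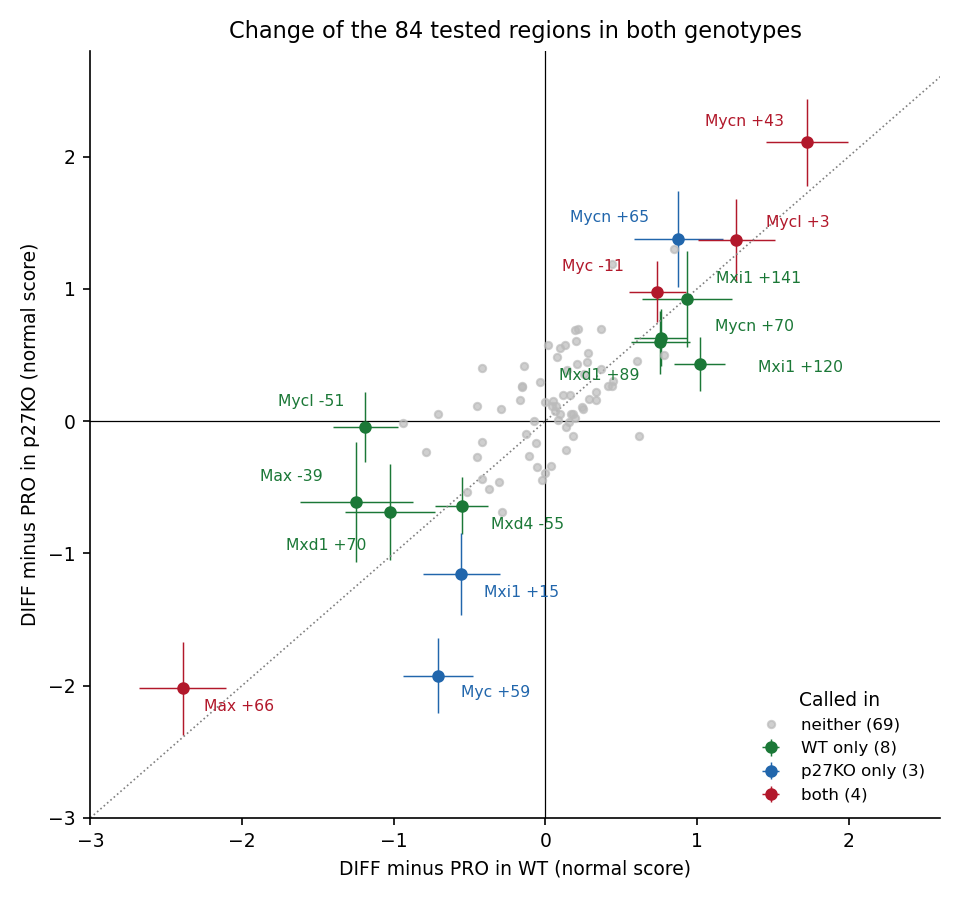
DIFF minus PRO change in WT (horizontal axis, difference of normal scores) against the same in p27KO (vertical axis) for the 84 tested regions, with labels giving gene and distance from the gene start in kb. Error bars are SE, drawn for called regions, colours give the genotype of the call, and the dotted line marks equal change. The 4 regions called in both lie near that line, Mycl −51 lies at −1.19 and −0.04, and Myc +59 at −0.71 and −1.93.

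Between genotypes within a condition, 0 of the 84 regions were called at PRO, where 0.034% of all regions were, and 0 at DIFF, where 0.0156% were (limma; 2 and 5 had an unadjusted p below 0.05). No member promoter was called either, beside 0.0402% of all promoters at PRO and 0.0335% at DIFF. The p27KO minus WT change of the 8 promoters lay between −0.19 and 0.30 at PRO and between −0.16 and 0.19 at DIFF. The highest of these, 0.30 ± 0.18, was that of Mxi1 at PRO (unadjusted p = 0.113).

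Presence of peaks gave a coarser view that does not use the ranks. A region was called closed when every PRO and no DIFF library of a genotype had a peak, and opened in the reverse case. Among the 102 member regions found in at least 2 libraries, 2 were closed and 0 opened in WT, against 4.32% closed and 1.86% opened of all such regions. Those closed were the region 51.0 kb upstream of Mycl and that 69.8 kb from Mxd1. In p27KO 8 were closed and 2 opened, 7.84% and 1.96%, against 10.9% and 3.32% of all such regions, and those opened lay 46.2 kb upstream of Mxd3 and 140.8 kb from Mxi1. The rule is easier to meet with 2 libraries per condition than with 3, and a shorter DIFF list favours closed over opened. Both p27KO DIFF lists were shorter than both p27KO PRO lists. In WT the list of DIFF replicate 3, with 88738 peaks, was longer than every PRO list. Per library, 69 to 91 of the 122 regions held a peak, or 11.5 ± 0.57 per 10000 regions of the list in WT PRO, 12.03 ± 1.66 in WT DIFF, 10.5 ± 0.19 in p27KO PRO and 12.2 ± 0.03 in p27KO DIFF (SD, n = 3, 3, 2 and 2), so fewer peaks at DIFF in these windows went with shorter lists.

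The sequence under the summits was searched for words of known factor families, in 300 bp on both strands. The network's own E-box CACGTG was found at the promoter summits of Max, Mxd3 and Mxd4, 3 of the 8. All promoter regions include several per gene, so the like set is the 20 start-site regions of the members in at least 2 libraries. Of these, 3 (15%) held CACGTG, against 8.39% of all promoter regions. The E2F word TTTCCCGC was found at 2 of the 8 (25%) and at 2 of the 20 (10%), against 1.54% of all promoter regions, and TTTGGCGC at none. In the RefSeq promoter table of GRCm38.p6 (250 bases before to 50 after the start), 7 of the 8 genes matched, and Max and Mxd4 held the E-box, against 7.15% of all 32851 promoters there. The Mxd4 copy began 219 bases before the start, within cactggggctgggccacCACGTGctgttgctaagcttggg, where capitals mark the E-box. Among the 67 distal member regions in at least 2 libraries, CACGTG was found in 7.46% (5 regions) against 4.13% of all distal regions, the Sox word ACAANG in 68.7% against 55.2%, the AP-1 word TGANTCA in 13.4% against 12.9%, and the palindrome of nuclear factor I (TGGC and GCCA 5 bases apart) in 8.96% (6 regions) against 3.08%. The proneural E-boxes CAGCTG and CAGATG were found in 31.3% and 23.9% of them, against 27.5% and 26.2%, and the E2F words TTTCCCGC and TTTGGCGC in none, against 0.276% and 0.279%. These shares describe small sets and were not tested.

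Of the wider network, 29 genes of Max-related factors, cofactors and regulators of Myc stability were examined at their promoters, such as Mnt, Mga, the acetyltransferase scaffold Trrap and the ubiquitin ligase subunit Fbxw7. None was called in either genotype (5 had an unadjusted p below 0.05 in each), with median changes of 0.11 in WT and 0.28 in p27KO beside 0.12 and 0.14 over all promoters. Of 44 classical Myc target genes of ribosome biogenesis, metabolism and the cell cycle, 2 were called in WT, both higher at DIFF, and 0 in p27KO (10 and 3 had an unadjusted p below 0.05). Among these, Ppat and Paics share 1 region and were counted as separate genes. The unadjusted counts of both lists have no share of all promoters beside them and cannot be judged against it. The WT share of 4.55% is near the 3.58% of all promoters, and in p27KO the share of all promoters was 1.37%. The spermidine synthase gene Srm stood at 94.8, 93.7 and 92.9 in WT PRO and at 98.2, 97.6 and 98.8 in WT DIFF and rose by 0.63 ± 0.14 (adjusted p = 0.0267). The promoter of Shmt2, which encodes the mitochondrial serine hydroxymethyltransferase, stood at 30.5, 49.2 and 36.3 in WT PRO and at 60.2, 50.1 and 75.2 in WT DIFF and rose by 0.79 ± 0.16 (adjusted p = 0.0203). Both were separated between conditions without overlap in WT, and their p27KO changes of 0.23 ± 0.17 and 0.40 ± 0.20 were not called (adjusted p = 0.510 and 0.327). The median change of the targets was 0.20 in WT and 0.22 in p27KO.

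Over the 10 libraries, the promoters whose normal scores followed that of Myc most closely were those of Fam222a (Pearson r = 0.889) and of Pdap1 and Bud31 (r = 0.887 for both). Those closest to Mycn, which also had the largest WT change of the 8 promoters, were Htr1b, Zadh2 (both r = 0.947) and Meis1 (r = 0.946). Pdap1 and Bud31 have equal values and may share 1 region, which was not checked. These correlations are the highest among the promoters compared and describe 10 libraries that differ in list length and condition.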

How the data were processed

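ATAC-seq libraries were trimmed and checked (FastQC, MultiQC, cutadapt, Trimmomatic), aligned to GRCm38 (mm10) with Bowtie2 and called separately per library with MACS2 by the authors, per the labels and the methods of the study. Versions, shift and extension size are not given in the sources used here. The deposited peak lists give for each peak a fold enrichment at the summit, a ratio to the library's local background, and −log10 p and q values. They hold no read counts, so the depth behind a value is unknown, and the absence of a peak and the length of a list can depend on it. The study's test on alignments (DiffBind) was not run.

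Groups follow the titles and genotype labels, and the design text calls the libraries biological replicates. Peaks overlapping by at least 1 bp were merged over the 10 lists, the highest fold enrichment per region was ranked within its list, with absent regions tied at the bottom, and ranks were turned into normal scores. limma 3.58.1 (R 4.3.3) fitted 1 mean per group to all 10 libraries for the 70627 regions found in 5 or more libraries. The promoter test used 1 region per protein-coding gene, with the summit nearest a start site and within 3 kb. Calls had a Benjamini-Hochberg adjusted p below 0.05 over all features. A percentile is the rank among all peaks of a list. The code was tested on simulated data. Genes came from GENCODE M21, sequences from the GRCm38.p6 genome and RefSeq (Python 3.11.15).

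The members and lists were chosen with earlier results of these data known. Named with values were all 8 promoters, up to 6 regions per direction called for DIFF minus PRO (up to 3 for other contrasts), the strongest distal region per gene, the 3 most similar promoters for Myc and for Mycn, and called genes of the lists. A few further regions were named after their values were seen: those called inside Mycl, and those compared directly with a named region (Fntb promoter, Mycn 64.2 kb, Mxi1 19.0 kb). Alternatives were ranking by p-value, the 57000 strongest peaks per list, filters of 2 and of all 10 libraries, only the groups compared, a replicate block, a 50 kb window, start sites within 1 kb, and leaving out each library.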

Additional observations from a re-analysis of the deposited data

How the results depend on the processing

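The member counts were 12 in WT and 7 in p27KO. They moved by more than 1.5 times with peaks ranked by p-value (11 in p27KO), with only the 54 regions present in all 10 libraries (5 in WT and 1 in p27KO, as fewer regions were tested) and with a 50 kb window (6 in WT, of 52 regions). Leaving out 1 library at a time gave 6 to 15 in WT and 3 to 7 in p27KO. The interaction, both genotype contrasts and all promoter tests had 0 calls among the members under every setting run. No called change turned its sign. Uncalled promoter changes did. In WT, ranking by p-value gave −0.00795 at Mxd1, −0.0280 at Mxd4, −0.22 at Mxd3, −0.17 at Myc and −0.11 at Mycn, the 57000 strongest peaks gave −0.0002486 at Mxd3, and the filter of all 10 libraries gave −0.0983 at Mxd3 and −0.00678 at Myc. In p27KO, ranking by p-value gave −0.0144 at Mxd3, −0.0578 at Mycl and −0.0692 at Mycn, and the filter of all 10 libraries gave −0.00653 at Mycl and −0.0175 at Mycn. Leaving out 1 library gave −0.0519 to 0.191 (WT) and −0.120 to 0.222 (p27KO) at the Mxd1 promoter, −0.125 to 0.198 (WT) and −0.0149 to 0.307 (p27KO) at Mxd3, −0.0336 to 0.268 at Myc and −0.0201 to 0.127 at Mycn in p27KO, −0.154 to 0.0664 at the region 51.0 kb upstream of Mycl and −1.30 to 0.0711 at that 39.0 kb upstream of Max in p27KO. The cause was not tested.

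The main fit did not use replicate numbers as pairs, and whether they pair the samples is unclear. Deviations of same-numbered WT libraries from their group means correlated weakly, at 0.0575, 0.0647 and 0.0328, each library best with its own number. In p27KO the value was −0.141, but with 2 libraries per group the deviations mirror each other, so it cannot decide the question. With the replicate block, 12 regions were called in WT and 7 in p27KO, but the WT calls 39.0 kb upstream of Max (adjusted p = 0.0745) and 55.1 kb upstream of Mxd4 (0.102) were lost and those 58.6 kb from Myc (0.0486) and 65.4 kb from Mycn (0.0361) were gained. With the p27KO numbers crossed, an alternative chosen after seeing the data, there were 13 and 8. Read depth is unknown, which limits what an absent peak can show, most of all in the shorter DIFF lists.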
